A study of Mus musculus with 48 samples.

Results

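Liver was compared with gastrocnemius, the large fast-twitch muscle of the calf, in WT mice. The mice were C57BL/6J, 4 months old and untreated, and by their labels carried no mutant allele. They belonged to a colony founded with a CRISPR-Cas9 knock-in of the IGF-1 receptor gene, backcrossed to C57BL/6J and then intercrossed. The comparison used 24 of the 48 polyA RNA libraries of the study, chosen by genotype and tissue: 6 female and 5 male livers, and 6 female and 7 male gastrocnemius muscles. A further library labelled liver, male, WT, replicate 5, was left out because it held muscle transcripts, and the 23 libraries of heterozygous carriers were not used. Each library is a separate biological replicate by the study's own description. Several livers share the number in their library name with a muscle of the same sex. Another liver, female and WT, shares its number with a muscle labelled male and heterozygous, which was not used. The labels do not say whether libraries that share a number come from the same animal, and the main tests treated all libraries as independent.

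The liver makes glucose, urea, bile acids and ketone bodies and secretes most plasma proteins, and its main cell is the hepatocyte. Gastrocnemius fibres burn glucose, glycogen and fatty acids for contraction and do not release free glucose. Many enzymes, transporters and structural proteins used by both tissues are encoded by several related genes, called paralogs, whose products differ in affinity, regulation or partners. A paralog switch is defined here as a family in which a different member leads in each tissue, with each leader higher in its own tissue in females and in males. The leader is the member with the most reads per kilobase of exon.

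The livers held 31332364 to 56312866 counted reads and the muscles 28479811 to 48829652. Gene levels are given below as CPM, the reads of a gene per 1000000 reads of its library, after scaling between libraries, and log2 fold changes are liver minus gastrocnemius ± SE, so that a positive value means a higher level in liver. Mitochondrially encoded genes took 2.41% to 5.81% of the reads of a liver and 6.79% to 15.9% of the reads of a muscle. Sums over cell type markers are in CPM of the library size, without that scaling. The summed level of 8 hepatocyte markers was 84470 to 113637 CPM in livers and 1.97 to 99.5 CPM in muscles. The summed level of 8 skeletal muscle fibre markers was 150105 to 179874 CPM in muscles and 0.351 to 2.04 CPM in livers. Both labels therefore matched their defining markers in the 24 libraries. In the library left out, the fibre markers summed to 159265 CPM and the hepatocyte markers to 6.84 CPM, and results that change with that library are given in the closing section. Bulk tissue also holds other cells. All 5 Kupffer cell markers and all 4 stellate cell markers were higher in liver, and all 4 Schwann cell, all 4 tendon and all 3 satellite cell markers were higher in muscle, in both sexes. Adipocyte markers summed to 4.00 to 27.2 CPM in livers and 17.1 to 559 CPM in muscles. In bulk RNA, fewer cells of a type and less RNA per cell cannot be told apart, here and in every result that follows.

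Most genes differed between the tissues. Of 20730 genes tested, 15139 (73.0%) differed at an adjusted p under 0.05 in the mean of the sexes, 7679 of them higher in liver and 7460 higher in muscle. The difference was significantly more than 2-fold for 9472 genes (45.7%). A gene is called below when it passed the threshold in females and in males with the same sign, which 5687 genes (27.4%) did as higher in liver and 5443 genes (26.3%) as higher in muscle. The 11 livers and 13 muscles did not overlap for 7073 genes (34.1%). Counts of listed genes below are read against these shares. A set of 1014 liver genes with a log2 fold change of at least 5 in both sexes and no overlap took a median of 43.9% of the reads of a liver and 0.120% of those of a muscle. The corresponding 873 muscle genes took 38.97% of the reads of a muscle and 0.0577% of those of a liver.

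The 12 most abundant liver genes of this kind, ranked per kilobase, were Alb, Fabp1, Apoe, Cyp2e1, Trf, Apoa1, Mup3, Rbp4, Ttr, Hpx, C3 and Serpina1e. They encode plasma carriers, apolipoproteins, a complement protein, a protease inhibitor, a urinary pheromone carrier, a fatty acid binding protein and a cytochrome P450. Alb (albumin, chr5:90608647-90624696 in GRCm39, the build of the coordinates of all genes here) had 64302 to 99352 CPM (median 82215) in livers and 1.55 to 84.8 CPM (median 14.3) in muscles. Fabp1, the liver fatty acid binding protein, had 2447 to 4239 CPM (median 3203) in livers and 0 to 6.66 CPM (median 0.825) in muscles. Livers and muscles were far apart for both genes, and since the 12 were chosen for their difference these values are a description. The alpha-1 antitrypsin gene Serpina1e was the least even of the 12, with 47.1 to 144 CPM in female livers and 7534 to 15519 CPM in male livers.

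The 12 muscle genes were Acta1, Mylpf, Tnni2, Tnnt3, Myl1, Pvalb, Aldoa, Myh4, Tcap, Tpm1, Atp2a1 and Pygm, which build the sarcomere, pump or bind calcium, or break down glucose and glycogen. Myh4 (chr11:67128336-67151274), the myosin heavy chain of the fastest fibres, had 49884 to 67893 CPM (median 54774) in muscles, against 20 reads in all livers together. Skeletal alpha-actin Acta1 had 21969.5 to 31921 CPM (median 26965) in muscles, against 2 reads in all livers together. The calcium buffer parvalbumin, Pvalb, had 5314 to 10892 CPM (median 7265) in muscles and no read in any liver, at least 1208390-fold higher against a floor of 3 reads over the livers, a bound that would be lower if both mates of a pair were counted as reads. The livers were thus at or near 0 for Myh4, Acta1 and Pvalb. Exons of other annotated genes cover 86.1% of those of Aldoa, so reads of this gene may be shared.

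Sequence upstream of a gene's start is shown for members whose levels split by tissue, beginning with Acta1 (chr8:123894776-123895025, minus strand), Myh4 (chr11:67237562-67237811, plus strand) and Fabp1 (chr6:71199629-71199878, plus strand). Each is the 250 bases before the start in RefSeq, read 5′ to 3′ in GRCm38.p6, an older build than that of the counts, so these coordinates are not comparable with the others. Capitals mark a TATA box (TATAAA), an E-box (CAGCTG, the core bound by myogenic factors), a CArG box or a MEF2 motif, on either strand, and 1 of the 3 TATA runs of Myh4, on the minus strand, lies within the MEF2 motif.
Acta1: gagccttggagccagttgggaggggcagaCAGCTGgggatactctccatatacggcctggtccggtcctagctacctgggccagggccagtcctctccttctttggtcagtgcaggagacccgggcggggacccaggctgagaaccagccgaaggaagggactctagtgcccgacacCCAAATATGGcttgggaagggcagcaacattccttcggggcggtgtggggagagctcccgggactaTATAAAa
Myh4: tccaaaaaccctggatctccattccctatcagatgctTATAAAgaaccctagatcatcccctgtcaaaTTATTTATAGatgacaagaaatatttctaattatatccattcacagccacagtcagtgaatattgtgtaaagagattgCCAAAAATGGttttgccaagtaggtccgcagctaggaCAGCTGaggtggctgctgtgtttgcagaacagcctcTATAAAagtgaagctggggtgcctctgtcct
Fabp1: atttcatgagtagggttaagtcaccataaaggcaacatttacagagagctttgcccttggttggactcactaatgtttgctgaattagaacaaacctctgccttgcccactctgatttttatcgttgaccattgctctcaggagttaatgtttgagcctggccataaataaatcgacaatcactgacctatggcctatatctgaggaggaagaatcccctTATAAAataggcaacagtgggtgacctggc
The Acta1 and Myh4 windows held an E-box and a CArG box, and that of Fabp1 held a TATA box and neither of these. An E-box stood in 6 of the 9 muscle genes above that matched the RefSeq table and in 0 of the 10 liver genes, against 14.96% of 13103 tested genes with a match. These matches describe letters in a window and are not measured binding sites.

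The comparison of paralogs covered 65 families with 212 listed members, of which 205 were tested. In livers 71 members (34.6%) were called higher and in muscles 107 (52.2%), both above the shares over all genes, for families that were listed with earlier results of these data known. A switch was found in 39 of the 65 families. In 14 families the same member led in both tissues, and in 12 the leaders differed without both being called. The liver leader of a switching family held a median of 96.6% of its family's summed level per kilobase in livers, and the muscle leader a median of 96.4% in muscles. Shares below are means ± SD over 11 livers or 13 muscles. In 18 families each leader held more than 90% in its own tissue. Within each sex alone, 37 of the 39 families had the same pair of leaders in females and 37 in males.

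**Figure D1:**
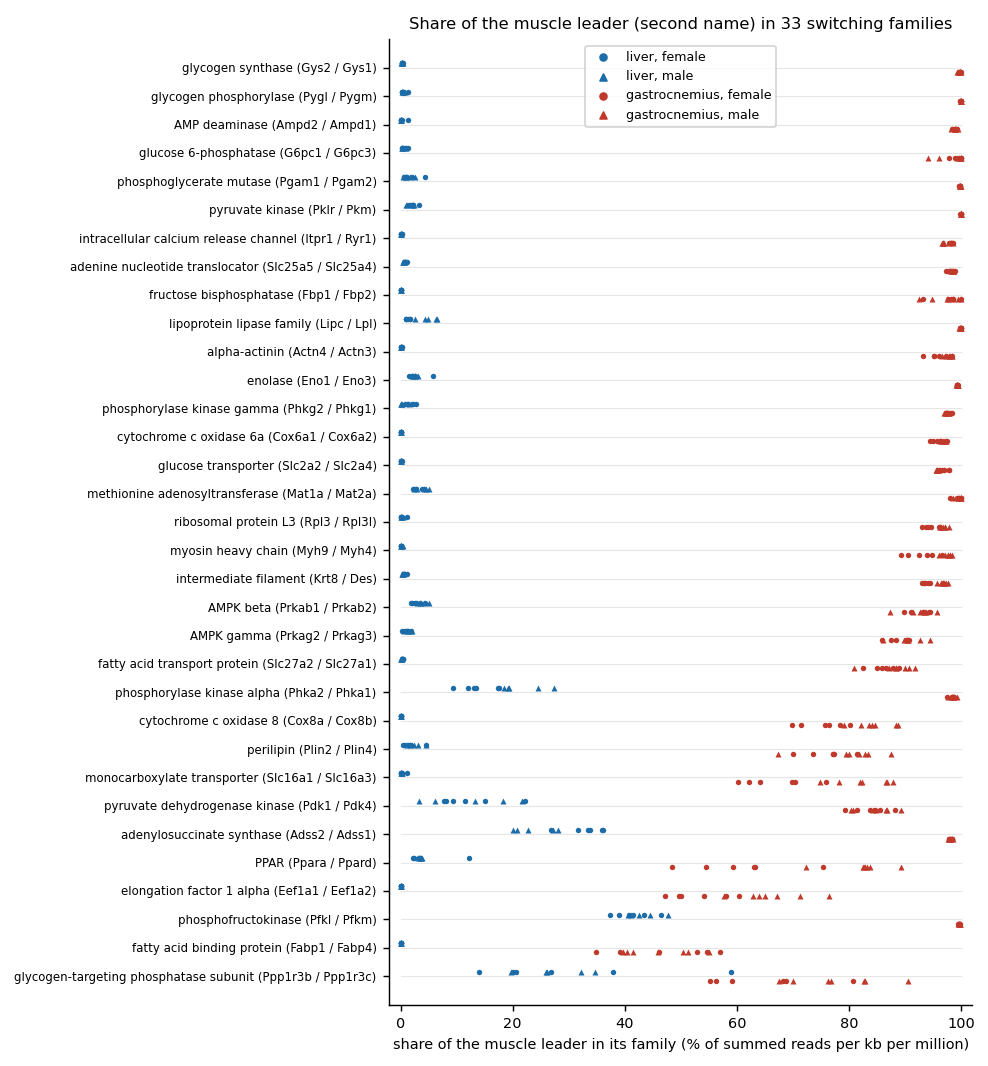
Share of the muscle leader in the summed level of its family (%, horizontal axis, from length-scaled CPM) in 33 of the 39 switching families, with the liver leader named first. Each circle is a female and each triangle a male library; blue livers sit near 0% and red muscles near 100% in most rows, and the glycogen-targeting subunits, phosphofructokinase and adenylosuccinate synthase show the highest shares of a muscle leader in livers.

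Glucose uptake and phosphorylation split between different genes in the 2 tissues. Slc2a2 (GLUT2, chr3:28752051-28785508) is the high-capacity transporter that carries glucose in and out of hepatocytes, and Slc2a4 (GLUT4, chr11:69831006-69839070) is the transporter that insulin brings to the fibre surface. Slc2a2 had 279.7 to 596 CPM (median 467) in livers and 0 to 1.92 CPM in muscles, and Slc2a4 had 0 to 0.619 CPM in livers and 409.5 to 591 CPM (median 473) in muscles. The groups did not overlap for either gene. The proteins are 51.6% identical over their alignment.

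Hexokinase 2, Hk2 (chr6:82699740-82751469), is the high-affinity enzyme that phosphorylates glucose in muscle. Hk2 had 0.272 to 3.13 CPM in livers and 253 to 589.9 CPM (median 365) in muscles, with log2 fold changes of -7.46 ± 0.35 in females and -8.84 ± 0.41 in males (adjusted p = 1.7e-15 and 1.0e-15). Hk2 made up 93.9% ± 2.29 of the family level in muscles.

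In glycolysis 5 of 7 families switched, pyruvate kinase and phosphoglycerate mutase among them. Aldoa, the aldolase of muscle, had 74.6 to 121 CPM in livers and 12713 to 23503 CPM (median 14709) in muscles. Pklr, whose liver form is controlled by phosphorylation, had 117 to 365 CPM (median 206) in livers and 0 to 1.61 CPM in muscles. Pkm had 7.95 to 19.3 CPM in livers and 2781 to 4791 CPM (median 3324) in muscles, and these counts do not separate its M1 and M2 splice forms. Livers and muscles did not overlap for these 3 genes. Pklr held 98.03% ± 0.659 of its family in livers.

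Pgam1 is the widely used phosphoglycerate mutase and Pgam2 the muscle form, and they are 79.1% identical in protein sequence. Pgam2 had 1024 to 2205 CPM (median 1464) in muscles and 0.145 to 1.02 CPM in livers. Pgam1 had 48.1 to 80.4 CPM (median 59.8) in livers and 3.94 to 10.4 CPM (median 6.30) in muscles, a smaller difference, with log2 fold changes of 2.79 ± 0.16 in females and 3.57 ± 0.15 in males. The enolases were similar: Eno3 had 4198 to 7700.5 CPM (median 6249) in muscles and 3.43 to 14.01 CPM in livers, while Eno1 had 445 to 549.6 CPM in livers and 71.5 to 108 CPM in muscles. Phosphofructokinase, the committed step, was the least complete of these switches. Pfkm held 99.7% ± 0.0979 of the family in muscles but still 42.2% ± 3.08 in livers, where Pfkl held 53.5% ± 3.26. The windows before the starts of Pgam1 (chr19:41911621-41911870, plus strand) and Pgam2 (chr11:5803797-5804046, minus strand) differ in marked motifs.
Pgam1: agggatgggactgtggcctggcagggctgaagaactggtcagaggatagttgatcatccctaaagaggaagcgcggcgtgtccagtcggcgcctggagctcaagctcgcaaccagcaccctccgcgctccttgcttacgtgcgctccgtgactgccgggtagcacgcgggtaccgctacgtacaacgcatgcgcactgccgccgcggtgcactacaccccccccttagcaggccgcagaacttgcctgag
Pgam2: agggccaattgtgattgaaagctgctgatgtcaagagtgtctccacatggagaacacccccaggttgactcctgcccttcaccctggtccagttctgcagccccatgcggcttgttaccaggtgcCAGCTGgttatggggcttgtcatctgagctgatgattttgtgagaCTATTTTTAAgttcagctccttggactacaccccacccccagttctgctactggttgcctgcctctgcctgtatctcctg
Capitals are as above: none of the 4 motifs stood before Pgam1, and an E-box and a MEF2 motif stood before Pgam2.

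The enzymes that run glycolysis backwards switched in 2 of 3 families, from liver genes at high levels to muscle genes at lower ones. Fbp1, fructose-1,6-bisphosphatase of the liver, had 831 to 1305 CPM (median 1103) in livers and 0 to 1.87 CPM in muscles. Fbp2, its muscle paralog, had 33.3 to 75.2 CPM (median 57.1) in muscles and 0.132 to 1.11 CPM in livers. G6pc1, the glucose-6-phosphatase that releases free glucose, had 249.2 to 946 CPM (median 555) in livers and 0 to 1.32 CPM in muscles, and the leader in muscles was the ubiquitous G6pc3, with 37.8 to 59.5 CPM (median 46.3) there and 3.46 to 7.98 CPM in livers. The phosphoenolpyruvate carboxykinase Pck1 led in both tissues, with 1821 to 4494 CPM (median 3644) in livers and 1.69 to 83.9 CPM (median 15.8) in muscles. The muscle with the lowest adipocyte sum (17.1 CPM, male replicate 4) had 1.69 CPM of Pck1 and the muscle with the highest (559 CPM, female replicate 1) had 68.7 CPM, and the part of adipocytes in this level was not tested. The genes Fbp1 (chr13:62888283-62888532, minus strand) and Fbp2 (chr13:62858401-62858650, minus strand) are neighbours on 1 chromosome and had opposite patterns.
Fbp1: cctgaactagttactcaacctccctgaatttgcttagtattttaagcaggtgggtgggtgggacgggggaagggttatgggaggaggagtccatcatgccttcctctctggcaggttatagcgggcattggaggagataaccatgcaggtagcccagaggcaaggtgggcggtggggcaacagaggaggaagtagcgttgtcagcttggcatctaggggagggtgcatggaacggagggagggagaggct
Fbp2: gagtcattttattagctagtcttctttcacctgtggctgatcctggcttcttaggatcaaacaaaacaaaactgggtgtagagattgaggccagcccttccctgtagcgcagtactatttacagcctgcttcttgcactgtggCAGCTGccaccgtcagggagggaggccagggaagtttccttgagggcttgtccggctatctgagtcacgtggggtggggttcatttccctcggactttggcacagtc
Of the marked motifs, the Fbp2 window held an E-box and the Fbp1 window none.

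All 5 glycogen families switched. Glycogen synthase builds the polymer: Gys2 had 195 to 471 CPM (median 326) in livers and 0 to 0.855 CPM in muscles, and Gys1 had 265 to 465 CPM (median 372) in muscles and 1.67 to 3.29 CPM in livers. Glycogen phosphorylase breaks it down: Pygl had 372 to 575 CPM (median 462) in livers and 1.37 to 11.2 CPM in muscles, and Pygm had 7394 to 12058 CPM (median 9329) in muscles and 0.819 to 2.69 CPM in livers. The tissues did not overlap for any of these 4 genes. Gys2 held 99.7% ± 0.0811 of its family in livers and Gys1 99.7% ± 0.205 in muscles. Of the subunits of phosphorylase kinase, which activates phosphorylase, Phka2 and Phkg2 led in livers and Phka1 and Phkg1 in muscles. Phkg1 had 468 to 693 CPM (median 584) in muscles against 0 to 0.852 CPM in livers. The subunits that bring protein phosphatase 1 to glycogen were the most mixed. Ppp1r3b held 64.3% ± 11.5 of its family in livers, and in muscles Ppp1r3c held 71.9% ± 10.96 and the muscle subunit Ppp1r3a 26.5%. Ppp1r3a was called higher in muscle, with 155 to 376 CPM (median 250.7) there and 0 to 0.351 CPM in livers.
Pygl: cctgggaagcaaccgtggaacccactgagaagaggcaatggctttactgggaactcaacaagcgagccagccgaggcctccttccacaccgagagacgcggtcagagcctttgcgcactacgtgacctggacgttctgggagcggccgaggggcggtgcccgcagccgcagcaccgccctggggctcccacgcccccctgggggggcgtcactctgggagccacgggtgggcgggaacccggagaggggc
Pygm: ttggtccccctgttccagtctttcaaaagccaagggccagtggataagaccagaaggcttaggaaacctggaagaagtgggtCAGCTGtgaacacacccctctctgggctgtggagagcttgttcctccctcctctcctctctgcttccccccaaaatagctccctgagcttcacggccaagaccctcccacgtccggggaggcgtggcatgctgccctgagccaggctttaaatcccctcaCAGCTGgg
These windows lie at chr12:70227684-70227933, minus strand, for Pygl and chr19:6384158-6384407, plus strand, for Pygm, and E-boxes, in capitals, stood before Pygm and none before Pygl.

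**Figure D2:**
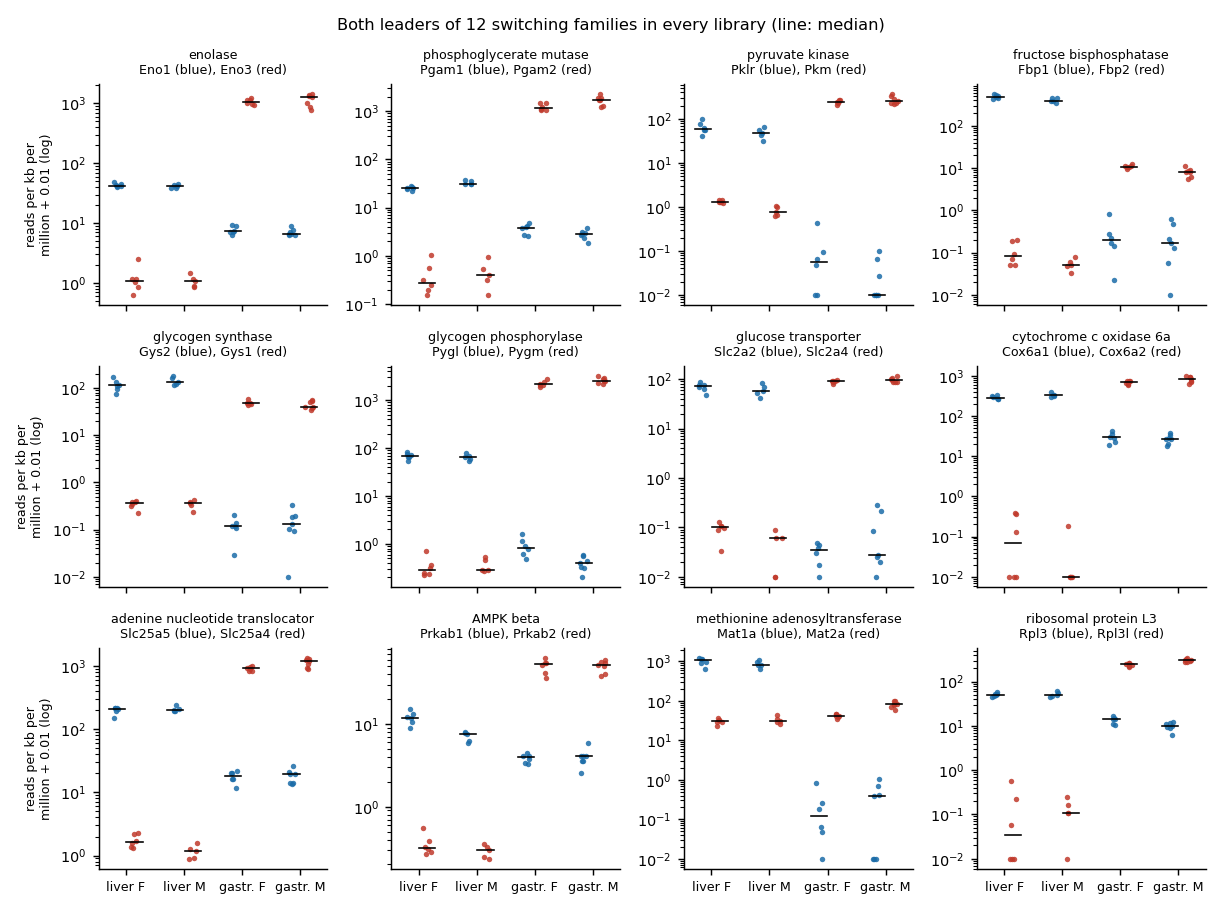
Level of the liver leader (blue) and the muscle leader (red) in 12 switching families, in length-scaled CPM (reads per kilobase of exon) plus 0.01 on a log axis, for female and male livers and female and male gastrocnemius muscles; each point is a library and each line a median. In all 12 panels blue lies above red in livers and red above blue in muscles, in both sexes.

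Lactate and pyruvate handling showed weaker contrasts. Lactate dehydrogenase A, Ldha, led in both tissues, with 588 to 1170.5 CPM in livers and 1963 to 3681 CPM in muscles. Among the monocarboxylate transporters Slc16a1 (MCT1) led in livers and Slc16a3 (MCT4, the lactate exporter of fast fibres) in muscles. Slc16a1 held 58.5% ± 13.4 of the family in livers and Slc16a7 (MCT2) 41.2%, and Slc16a7 led in female livers and by CPM without length. Slc16a3 had 152 to 511 CPM (median 318) in muscles and 0 to 2.78 CPM in livers. Slc16a1 had 39.5 to 95.5 CPM in livers and 22.5 to 79.9 CPM in muscles, with an adjusted p of 0.033 in females, and its call was lost in most alternative settings. The kinases that switch off pyruvate dehydrogenase were Pdk4 in muscles, at 84.3% ± 3.11 of the family, and a mixture of Pdk1 (45.7% ± 9.48) and Pdk2 (41.7%) in livers. Pdk4 had 919.5 to 1802 CPM (median 1305) in muscles and 3.41 to 26.6 CPM in livers. The switch of this family was lost under upper quartile scaling, with the length of the canonical transcript and with the male libraries alone.

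In fatty acid handling 4 of 7 families switched, along with the PPAR receptors that regulate it. Lipc, hepatic lipase, had 127 to 257 CPM (median 219) in livers and 0 to 0.593 CPM in muscles, and Lpl, lipoprotein lipase, had 412 to 1158 CPM (median 652) in muscles and 13.7 to 53.8 CPM in livers. The lowest Lpl was in the muscle with the lowest adipocyte sum and the highest in that with the highest. Between these ends the order was uneven. Male replicate 2 had a sum of 34.9 CPM and 1036 CPM of Lpl, and female replicate 2 had 169 and 551 CPM. The part of adipocytes was not tested. The transporter Slc27a2 (FATP2) led in livers with 51.9% ± 4.53 of its family and Slc27a1 (FATP1) in muscles with 87.2% ± 3.14. Slc27a2 had 1327 to 2272 CPM in livers and 0.0489 to 2.45 CPM in muscles, and Slc27a1 had 9.78 to 37.7 CPM in livers and 92.9 to 261 CPM in muscles. Ppara, the fasting regulator of fat oxidation, led in livers (61.6 to 237 CPM, against 1.65 to 14.4 CPM in muscles) and Ppard in muscles (22.2 to 38.8 CPM, against 5.91 to 10.7 CPM in livers). The lipid droplet coat Plin2 led in livers and Plin4 in muscles, with 78.4% ± 5.56 of the family.

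The fatty acid binding proteins changed from Fabp1 in livers, at 98.6% ± 0.280 of the family, to Fabp4 and Fabp3 in muscles, at 46.8% ± 7.22 and 48.9%. Fabp4 is the adipocyte form and Fabp3 the heart and muscle form. Fabp4 ranged from 118 to 501 CPM over the muscles and was 160 CPM in the muscle with the lowest adipocyte sum and 501 CPM in that with the highest, and the part of adipocytes was not tested. Fabp3 had 161 to 386 CPM (median 255) in muscles and 0 to 0.382 CPM in livers. Which of the 2 led in muscles changed with the gene length used and with the sex. No switch was called for carnitine palmitoyltransferase 1, the entry of fatty acids into mitochondria. Cpt1a held 99.8% ± 0.2003 of its family in livers and 68.3% ± 9.95 in muscles. The muscle form Cpt1b had 1.08 to 5.01 CPM (median 2.52) in muscles and 0.0653 to 0.573 CPM in livers, but exons of other genes cover 89.8% of its exons, so its level is uncertain.

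Of 7 families of the respiratory chain and its carriers 3 switched, which were subunits 6a and 8 of cytochrome c oxidase and the ADP/ATP carrier. Cox6a2, the heart and muscle form of cytochrome c oxidase subunit 6a, had 405 to 659 CPM (median 514) in muscles and 0 to 0.2505 CPM in livers, and Cox6a1 had 184 to 277 CPM (median 223) in livers and 12.5 to 30.7 CPM (median 20.5) in muscles. Cox8b had 137 to 368 CPM (median 200.1) in muscles and 0 to 0.247 CPM in livers, and Cox8a had 103 to 159 CPM (median 131) in livers and 14.1 to 32.2 CPM (median 18.1) in muscles. All 4 genes separated the tissues without overlap. Cox7a1, the muscle form of subunit 7a, led in muscles with 66.7 to 167 CPM (median 95.3), but the liver leader Cox7a2 was not called higher in liver, with log2 fold changes of -0.08 ± 0.16 in females and 0.03 ± 0.17 in males. The ADP/ATP carrier of the inner mitochondrial membrane was Slc25a5 (ANT2) in livers and Slc25a4 (ANT1) in muscles, and these proteins are 89.6% identical. Slc25a5 had 269 to 424 CPM in livers and 20.7 to 46.5 CPM in muscles. Slc25a4 had 2.60 to 6.72 CPM in livers and 2421 to 3879 CPM (median 2857) in muscles.

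Enzymes of the adenine nucleotide pool switched in 3 of 4 families. AMP deaminase changed from Ampd2 (96.0% ± 1.62 of the family in livers) to Ampd1 (98.8% ± 0.340 in muscles). Ampd1, which feeds the purine nucleotide cycle of working muscle, had 1068 to 2009 CPM (median 1245) in muscles and 0 to 0.433 CPM in livers. Adenylosuccinate synthase of the same cycle changed from Adss2 to Adss1. Ak1, which interconverts adenine nucleotides, had 1101 to 1847 CPM (median 1377) in muscles and 0 to 0.486 CPM in livers. Creatine kinase, which buffers ATP, was led in muscles by Ckm, with 6660.0 to 11158 CPM (median 7980.3). The livers held 6 Ckm reads together, and the low level of Ckb in livers (2.17 to 6.28 CPM) was not called higher than in muscles (4.30 to 10.3 CPM).

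AMP-activated protein kinase senses a falling energy charge through a catalytic alpha, a scaffold beta and a nucleotide-binding gamma subunit. Its beta and gamma subunits switched and its alpha subunit did not. Prkab1 held 96.7% ± 0.977 of beta in livers and Prkab2 92.6% ± 2.20 in muscles. Prkab2 had 398 to 680.4 CPM (median 566) in muscles and 2.45 to 5.86 CPM in livers. Prkag3, a gamma subunit known from fast muscle, had 176 to 438 CPM (median 248) in muscles and 0.155 to 0.752 CPM in livers, where Prkag2 led. Prkaa2 led among the alpha subunits in both tissues, with 48.8 to 139 CPM in livers and 134 to 337 CPM in muscles.

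Amino acid enzymes switched in 2 of 5 families. Methionine adenosyltransferase, which makes the methyl donor S-adenosylmethionine, changed from Mat1a, with 2445 to 4528 CPM (median 3633) in livers and 0 to 3.95 CPM in muscles, to Mat2a, with 109 to 199.98 CPM in livers and 165 to 478 CPM (median 282) in muscles. Gls2, the liver glutaminase, had 325 to 683 CPM (median 472) in livers and 0.111 to 1.05 CPM in muscles. Arginase 1, Arg1, led in both tissues, with 866 to 1782 CPM in livers and 0 to 1.97 CPM in muscles. Bcat2, the mitochondrial aminotransferase of branched-chain amino acids, led in both, with 18.7 to 51.9 CPM in livers and 49.5 to 84.5 CPM (median 67.0) in muscles.

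Calcium and ion transport switched in 2 of 4 families. Ryr1, the channel that releases calcium from the sarcoplasmic reticulum, had 2659.9 to 5524 CPM (median 4121) in muscles and 0 to 0.353 CPM in livers. The inositol trisphosphate receptor Itpr1 led in livers, at 54.0% ± 4.80 of the family, but the switch was lost under upper quartile scaling and with the filter on both tissues. The reticulum calcium pump Atp2a1 (SERCA1) had 12353 to 29534 CPM (median 21220.0) in muscles and 0 to 0.457 CPM in livers. Atp2a2 led in livers but was not called higher there, with 113 to 257 CPM in livers and 60.8 to 1471 CPM in muscles.

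Cytoskeletal families switched from forms of nonmuscle cells to muscle forms in 4 of 7 cases. The actin cross-linker Actn4 led in livers and Actn3, an alpha-actinin of fast fibres, in muscles, at 96.9% ± 1.58 of the family. Actn3 had 8345 to 14668 CPM (median 10197) in muscles and 0 to 0.292 CPM in livers. Nonmuscle Myh9 gave way to Myh4, and the keratins Krt8 and Krt18 to desmin, Des. The switch of Myh9 and Myh4 was lost under upper quartile scaling, with the filter on both tissues and with the library number as a block. Des had 2704 to 4244 CPM (median 3175) in muscles and 2.76 to 7.30 CPM in livers, while Krt8 had 85.9 to 243 CPM (median 132) in livers and 0 to 6.28 CPM in muscles. Krt8 held 48.8% ± 5.37 of its family in livers and its partner Krt18 47.9%, too close to order beyond the SD.

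Both translation families also switched. Elongation factor 1 alpha delivers aminoacyl-tRNA to the ribosome, and its paralogs Eef1a1 and Eef1a2 are 92.4% identical. Eef1a2 had 1377 to 2388 CPM (median 1710.3) in muscles and 2 reads in all livers together. Eef1a1 had 3789.6 to 5219 CPM (median 4619.7) in livers and 199 to 549 CPM (median 381) in muscles, and the share of Eef1a2 in muscles, 60.3% ± 8.73, rested on gene length, since with the length of the canonical transcript alone the family did not switch. Rpl3l is a paralog of the ribosomal protein Rpl3 known from striated muscle. It had 359.8 to 566 CPM (median 459.9) in muscles and 0 to 0.928 CPM in livers, and Rpl3 had 236 to 334 CPM (median 269) in livers and 33.8 to 91.3 CPM (median 59.0) in muscles. Rpl3l held 95.8% ± 1.46 of this family in muscles.

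The 4 families of insulin and IGF signaling did not switch. Akt2, Irs2, Insr and Foxo4 led in both tissues, but by CPM without length Foxo3 led in livers and Foxo4 in muscles, and both passed as a switch. Insr, the insulin receptor, had 148 to 251.5 CPM (median 208) in livers and 62.6 to 104 CPM (median 79.8) in muscles, with log2 fold changes of 1.20 ± 0.13 in females and 1.41 ± 0.13 in males (adjusted p = 3.9e-09 and 1.1e-10). Its relative Igf1r, the IGF-1 receptor, had 1.77 to 5.67 CPM (median 3.96) in livers and 12.1 to 34.7 CPM (median 19.1) in muscles, with log2 fold changes of -2.57 ± 0.17 in females and -2.94 ± 0.19 in males (adjusted p = 2.6e-13 and 8.8e-14). The receptors thus went in opposite directions without overlap, and Insr held 98.8% ± 0.418 of the receptor family in livers and 84.3% ± 3.95 in muscles.

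Paralogs were also paired without a list, by protein sequence alone. Among 10932 tested protein-coding genes, 2210 reciprocal best pairs had at least 40% identity over at least 70% of the longer protein. In 362 pairs (16.4%) the members were called in opposite directions and in 624 in the same direction. Over all genes tested, 27.4% were called higher in liver and 26.3% higher in muscle, so unrelated genes would also give opposite pairs. No such comparison was made, and the 16.4% is not read as a trait of paralogs. All 4 log2 fold changes of a pair (2 genes in 2 sexes) reached 2 in size in 107 of the 362, and 25 of the 362 lay in the families above. The following pairs outside those families were picked after their values were seen, from those with the largest differences.

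Tph1, a tryptophan hydroxylase, had no read in any liver and 0.877 to 8.09 CPM (median 4.23) in muscles. The glycerol channels Aqp9 and Aqp7 (identity 48.1%) lay on opposite sides: Aqp9 had 459 to 681 CPM in livers and 0 to 1.22 CPM in muscles, and Aqp7 had 0 to 0.175 CPM and 5.97 to 18.3 CPM. The aspartate-glutamate carriers of mitochondria, Slc25a13 (citrin) and Slc25a12 (aralar), are 77.8% identical. Slc25a13 had 188 to 372 CPM (median 317) in livers and 0 to 1.56 CPM in muscles, and Slc25a12 had 8.33 to 22.6 CPM in livers and 255 to 573 CPM (median 436) in muscles. The cholinesterases Bche and Ache (51.4%), of plasma and of the neuromuscular junction, had 115 to 332 and 0.131 to 2.24 CPM in livers and 1.69 to 10.4 and 19.5 to 38.1 CPM in muscles. Nipsnap1 and Nipsnap2, mitochondrial proteins of 69.5% identity, had 182 to 273 and 13.4 to 21.2 CPM in livers and 0.0674 to 1.88 and 336 to 529 CPM in muscles. For these genes and for 2 further pairs the tissues did not overlap. Fndc5, the precursor of the myokine irisin, had 33.9 to 87.0 CPM (median 53.8) in muscles and 0.124 to 0.994 CPM in livers, and its paralog Fndc4 had 0.365 to 2.51 and 27.8 to 51.2 CPM. The membrane protease Dpp4 had 118 to 203 CPM in livers and 3.14 to 10.4 CPM in muscles, and its neighbour on chromosome 2, Fap, a protease of fibroblasts, had 0.0409 to 0.928 and 3.64 to 12.4 CPM.

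The windows of 250 bases before the starts of the switching leaders differed in 1 motif by more than in the others searched, on both strands and with overlaps allowed. An E-box (CAGCTG) stood before 15 of the 30 muscle leaders with a RefSeq match (50%) and before 4 of the 26 liver leaders (15.4%), against 14.96% of 13103 tested genes. Genes with several annotated starts have more windows, so the same was counted for genes with 1 start: 11 of 23 muscle leaders (47.8%), 2 of 20 liver leaders (10%) and 12.3% of 10528 tested genes. The muscle leaders with an E-box included Pygm, Gys1, Pgam2, Fbp2, Cox8b, Des, Prkag3 and Rpl3l. The MEF2 motif stood before 3 of the 30 muscle leaders and 0 of the 26 liver leaders, against 2.33% of tested genes. The searched HNF4 (CAAAGTCCA) and HNF1 (GTTAATNATT) motifs, of factors known from hepatocytes, were in none of the windows of leaders and in 0.565% and 0.412% of tested genes. A CCAAT box stood before 53.3% of muscle and 42.3% of liver leaders and a GC box (GGGCGG) before 46.7% and 65.4%, against 39.3% and 57.1% of tested genes. These counts carry no test, and the absence of a motif says only that its letters are not in this window.

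Gene lists of liver functions were higher in liver with almost no exception. All 8 urea cycle genes, 13 bile acid genes, 16 coagulation genes, 17 complement genes, 15 apolipoprotein genes and 11 genes of aromatic amino acid breakdown that were tested were called higher in liver. Their median log2 fold changes were 10.32, 10.27, 11.46, 7.03, 10.92 and 9.66, beside 0.013 over all genes tested. Cps1, which fixes ammonia at the entry of the urea cycle, had 2072 to 5999 CPM (median 4288) in livers and 0 to 2.45 CPM (median 0.351) in muscles. Cyp7a1, the rate-limiting enzyme of bile acid synthesis, had 24.6 to 444 CPM (median 120.4) in livers and 0 to 0.867 CPM in muscles. All 14 cholesterol synthesis genes were higher in liver by less, with a median of 3.10. Under upper quartile scaling 11 of them were called, with a median of 2.79. Sqle, which oxidizes squalene, had 12.3 to 84.4 CPM in livers and 0.913 to 3.78 CPM in muscles. None of these 3 genes overlapped between the tissues. All 13 liver transcription factors were higher in liver (median 10.37), and Hnf4a, a master factor of hepatocytes, had 649 to 972 CPM (median 822) in livers and 0 to 1.15 CPM in muscles.

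Genes of branched-chain amino acid breakdown were mixed in direction. Of 12 genes, 8 were higher in liver, 3 in muscle and 1 in neither, with a median of 0.82. Under upper quartile scaling 6 were higher in liver and 3 in muscle, with a median of 0.50. The genes higher in muscle were Bcat2, the first step, Dld, a subunit shared with pyruvate dehydrogenase, and Bckdk, the kinase that inhibits the second step. Bckdk had 11.2 to 15.7 CPM in livers and 115 to 177 CPM in muscles. Bckdha, a subunit of the complex it inhibits, had 28.0 to 63.7 CPM in livers and 15.7 to 39.998 CPM in muscles.

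The muscle lists were as one-sided. All 14 fast fibre genes, 16 sarcomere genes, 18 genes of excitation-contraction coupling and 11 myogenic factors were called higher in muscle, with medians of -18.02, -14.59, -11.95 and -10.38. In these lists 4, 5, 6 and 7 genes had no liver read, and with their livers set to the floor of 3 reads the medians of the log2 ratio of mean levels were -17.41, -14.24, -11.16 and -9.36. Myod1, a factor that determines the muscle lineage, had 6.29 to 23.3 CPM (median 14.4) in muscles and no read in any liver. Of 12 slow fibre genes 10 were higher in muscle, and Atp2a2 and Tpm3, which many cell types use, were called in neither direction. The slow myosin Myh7 had 7.91 to 1499.6 CPM (median 158) in muscles, far below the 49884 to 67893 CPM of Myh4 on the same scale and at a similar gene length. Tnnc2, fast troponin C, was counted at only 1.25 to 3.70 CPM in muscles, and exons of other genes cover 78.7% of its exons.

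**Figure D3:**
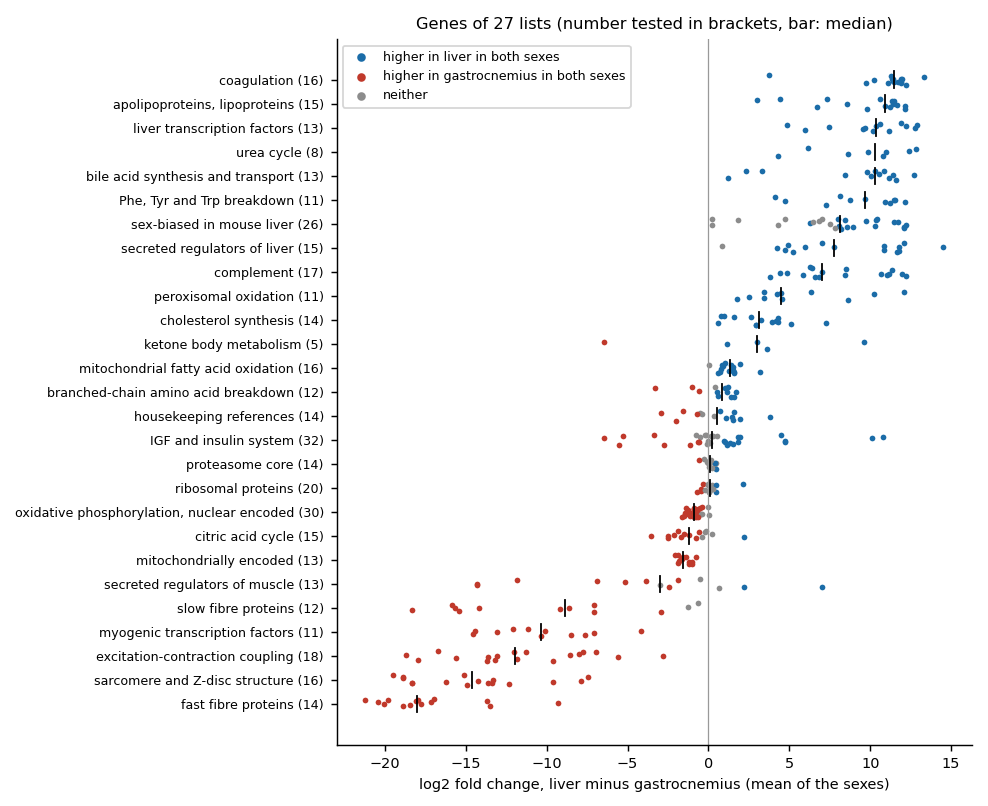
Log2 fold change, liver minus gastrocnemius in the mean of the sexes (horizontal axis), of every tested gene in 27 lists, 1 list a row; colours mark genes called higher in liver, higher in muscle or in neither, and the bar is the list's median. Liver lists lie right of 0 and contractile lists left of it, while ribosomal and proteasome genes lie around 0.

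Genes of energy metabolism differed in direction by pathway. Of 30 nuclear oxidative phosphorylation genes 26 were higher in muscle and none in liver, with a median of -0.87, and Ndufb8, Sdha, Sdhd and Uqcrc2 were in neither group. All 13 mitochondrially encoded genes were higher in muscle (median -1.58), and of these mt-Co2, mt-Co3, mt-Atp6 and mt-Nd3 have near-identical nuclear copies and few counted reads, so their values are uncertain. Of 15 genes of the tricarboxylic acid cycle 10 were higher in muscle and 1 in liver. That gene was Suclg2, the GDP-forming subunit of succinyl-CoA ligase, with 259.6 to 382 CPM (median 337) in livers and 45.2 to 98.6 CPM (median 69.4) in muscles. Its ADP-forming counterpart Sucla2 had 121 to 167 CPM in livers and 333 to 560.3 CPM in muscles.

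Fatty acid oxidation went the other way, with 15 of 16 genes higher in liver, Hadhb in neither and a median of 1.33. Under upper quartile scaling 12 of the 16 were higher in liver and none in muscle, with a median of 1.02. All 11 peroxisomal genes were higher in liver (median 4.49). Ketone body genes split by direction of the pathway. Oxct1, the enzyme that activates ketone bodies for use, had 3.07 to 5.91 CPM (median 3.98) in livers and 235 to 483 CPM (median 346) in muscles. It separated the tissues without overlap, and of the 5 genes tested 4 were higher in liver and Oxct1 alone in muscle.

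The insulin and IGF list was mixed, with 13 genes higher in liver, 8 in muscle and 11 in neither, and a median of 0.19. Under upper quartile scaling 12 were higher in liver and 11 in muscle, with a median of -0.12. Igf1, the hormone that liver supplies to the blood, had 461 to 719 CPM (median 617) in livers and 9.04 to 39.6 CPM (median 23.6) in muscles. Igfals, the subunit that holds IGF-1 in the circulating complex, had 72.0 to 149.7 CPM (median 119) in livers and 2.90 to 7.98 CPM in muscles. The growth hormone receptor Ghr had 345 to 747 CPM in livers and 98.01 to 219 CPM in muscles. The binding proteins of IGF divided between the tissues. Igfbp1, Igfbp2 and Igfbp4 were higher in liver and Igfbp5 and Igfbp6 in muscle. Igfbp2 had 242 to 652 CPM in livers and 0 to 0.709 CPM in muscles, and Igfbp5 had 5.89 to 26.1 CPM (median 8.43) in livers and 235 to 601 CPM (median 413) in muscles. The genes higher in muscle also included Igf1r, Akt2, the adaptor Grb10, Tsc1, Tsc2 and Igf2. Igf2 had 0 to 0.0588 CPM in livers and 0.0674 to 1.60 CPM in muscles.

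Secreted factors followed their usual tissue in most cases. Of 15 liver-secreted genes 14 were higher in liver, and thrombopoietin, Thpo, was called in neither direction, with log2 fold changes of 1.34 ± 0.15 in females and 0.31 ± 0.15 in males. Of 13 genes of muscle-secreted factors 8 were higher in muscle and 3 in neither, and the stress hormone Fgf21 and the chemokine Cxcl12 were higher in liver. Fgf21 had 1.45 to 9.43 CPM in livers and 0 to 0.177 CPM in muscles. Myostatin, Mstn, which limits muscle growth, had 42.8 to 129 CPM (median 62.8) in muscles and no read in any liver, at least 10020-fold higher against the floor of 3 reads. Igf1 was thus on the liver side and Mstn on the muscle side in all 24 libraries.

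Of 14 genes often used as references 7 were higher in liver, 4 in muscle and 3 in neither. Of 20 ribosomal protein genes 3 were higher in liver, 4 in muscle and 13 in neither, and of 14 proteasome genes 11 were in neither. Gapdh, often used for normalization, had 992 to 1383 CPM (median 1081) in livers and 6875 to 11676 CPM (median 8261) in muscles, and B2m had 1194 to 1705 CPM (median 1465) in livers and 45.3 to 180.3 CPM (median 91.7) in muscles. In both sexes 836 genes had a 95% interval of the log2 fold change within -0.58 and 0.58. The most abundant were Eef2, Rps3a1, Rps2, Rps4x, Rpl8, Oaz1, Atp5mc3 and Chchd2. Eef2, elongation factor 2, had 1320.3 to 1931 CPM (median 1698) in livers and 1429.8 to 1988 CPM (median 1589) in muscles, and the intervals of its log2 fold change were -0.23 to 0.23 in females and -0.12 to 0.36 in males. The sign of such small values depends on the scaling, and under upper quartile scaling Eef2, Rps3a1, Rps4x and Chchd2 turned to a higher level in muscle.

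The tissue difference was then compared between females and males. Of all genes tested, 1713 genes (8.26%) had a tissue by sex interaction, 831 with a larger liver-minus-muscle value in females and 882 in males. Of these 1029 were called in the same direction in both sexes, and 76 of all genes were called in opposite directions. The genes with the largest interactions encode steroid sulfotransferases, cytochrome P450 enzymes and urinary proteins of the liver, and the 10 with the largest values reached at most 2.79 CPM in muscles. Since they were chosen for this value it is a description. A list of 26 tested genes known as sex-biased in mouse liver had 18 with an interaction, and 16 of them were higher in liver in both sexes and 10 in neither or in 1 sex. Sult2a2, a bile acid and steroid sulfotransferase, had 109 to 723 CPM in female livers, 0 to 0.163 CPM in male livers and 0 to 0.741 CPM in muscles. Sult3a1 had 46.0 to 227 CPM in female livers and 0 to 0.245 CPM in male livers, and Cyp3a16 had 3.66 to 694 and 1.94 to 3.20 CPM, with the lowest female next to the highest male. A1bg, a plasma glycoprotein, had 42.9 to 3252 CPM in female livers and 0 to 0.353 CPM in male livers. For these genes the female livers were the high group. In the other direction, the fatty acid hydroxylase Cyp4a12a had 249.9 to 573 CPM in male livers, 0 to 1.29 CPM in female livers and 0 to 0.320 CPM in muscles. Mup7 had 479.7 to 1763 and 1.36 to 9.29 CPM in male and female livers, and Moxd1, a monooxygenase relative of dopamine beta-hydroxylase, had 0.486 to 115 and 0 to 0.294 CPM. The Mup, Sult2a and Cyp3a genes have near-identical copies, so reads may be split among them. Without female muscle replicate 2 the interactions of Mup1 and Mup21 were -5.80 and -5.17 and no longer called, without male muscle replicate 3 that of Sult3a1 was 8.52 and not called, and without male muscle replicate 2 or 3 that of Cyp3a16 was 10.96 or 11.02 and not called. By limma-voom the interactions of A1bg, Cyp3a16, Moxd1 and Sult2a1 were not called (adjusted p of 0.066 to 0.50).

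**Figure D4:**
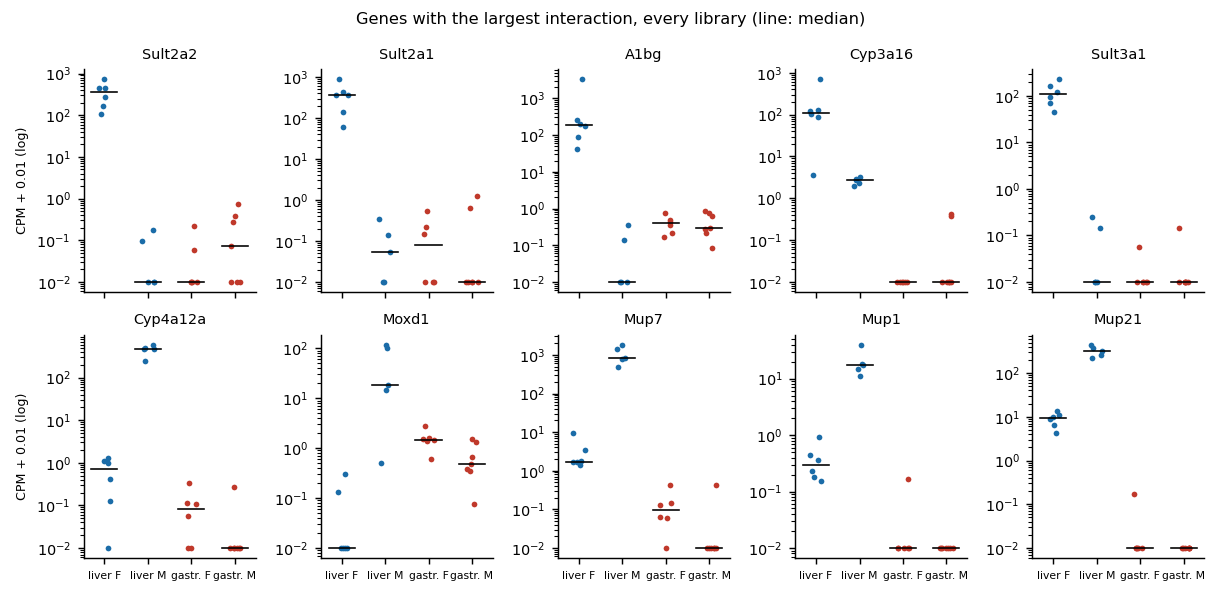
CPM plus 0.01 on a log axis of the 10 genes with the largest tissue by sex interactions in female and male livers and gastrocnemius muscles; each point is a library and each line a median. Female livers are high for Sult2a1, Sult2a2, Sult3a1, Cyp3a16 and A1bg and male livers for Cyp4a12a, Moxd1, Mup1, Mup7 and Mup21, while the muscles reach at most 2.79 CPM.

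Some switching leaders also carried an interaction without a change of direction. The interaction (female minus male, on the log2 scale) was 1.39 ± 0.42 for Hk2 (adjusted p = 0.041) and 2.28 ± 0.69 for Ryr1 (adjusted p = 0.041). Ryr1 was near 0 in the livers, so its value rests on few liver reads. Hk2 had 0.764 to 3.13 CPM in female livers and 0.272 to 1.46 CPM in male livers, against 306 to 442 and 253 to 589.9 CPM in female and male muscles. Krt8 had 85.9 to 132 CPM in female livers and 149.6 to 243 CPM in male livers, and 0.129 to 6.28 and 0 to 1.42 CPM in muscles. Ppara had an interaction of -1.67 ± 0.46 (adjusted p = 0.026), with 61.6 to 237 CPM in female livers and 134 to 214 CPM in male livers. For these 4 genes the tissue with the higher level was the same in both sexes.

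**Figure D5:**
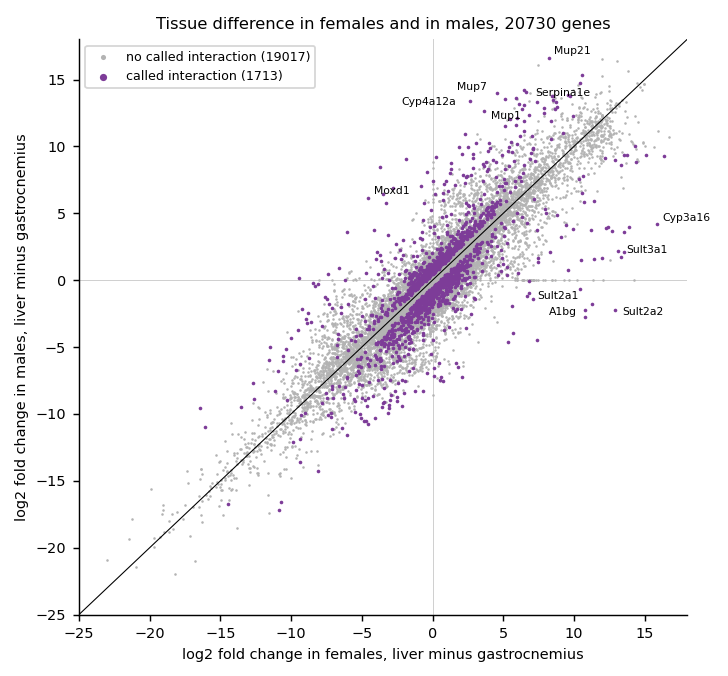
Log2 fold change, liver minus gastrocnemius, in females (horizontal axis) and in males (vertical axis) for 20730 genes, with the line of equal values; 1713 genes with a called interaction are coloured. Most points follow the line, and the labelled genes with the largest interactions lie far from it.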

How the data were processed

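The authors isolated RNA with a spin column kit, and polyA-enriched libraries were made and sequenced by a company. Per the labels, reads were processed with STAR 2.7.11b and featureCounts 2.0.6 on GRCm39. The deposited values are raw read counts per gene for 57010 genes, and 23 columns of heterozygous mice were not used. The annotation and strand setting of the counting are not given in the sources used here. Of counts from 1 to 100, 79.4% were even, a pattern that counting both mates of a pair would give, so that a floor of 3 reads may stand for fewer fragments. Floors cover counting error only, and intervals of fold changes come from the fit over libraries. GENCODE release 39 for mouse gave names to 98.8% of the gene identifiers, and exon lengths and coordinates.

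Genes with at least 10 reads in 20% of the libraries of either tissue were tested. Counts were fitted with edgeR 4.0.16 (TMM scaling, robust quasi-likelihood, 4 groups of tissue and sex), with contrasts in females, in males, in their mean and between the sexes, a test against a 2-fold difference, and Benjamini-Hochberg adjustment at 0.05. The SE of a log2 fold change is its size over the square root of the F statistic. CPM use the TMM library sizes. Reads per kilobase use the union of exons. The scripts were tested on simulated data first. Proteins were paired with blastp 2.17.0. RefSeq windows come from GRCm38.p6. R 4.3.3, Python 3.11.15, limma 3.58.1 and DESeq2 1.42.0 were also used.

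The members, families, gene lists and rules were chosen with earlier results of these data known. By rule, the named genes were the 12 most abundant tissue genes with a log2 fold change of at least 5 in both sexes and no overlap, the leaders of families and other members needed to describe them, the 5 most abundant of a list and those going against it, the 5 largest interactions in each direction (mean log2 CPM of at least 1, no sex-linked genes), and the 8 most abundant near-equal genes. Some families and genes are not reported here. A few further list members and pairs were named after their values were seen. Alternatives were other scalings, filters, tests, blocks, gene lengths and samples.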

Additional observations from a re-analysis of the deposited data

Results flagged for a closer look

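In 18 of 184 groups of 5 to 7 libraries of 1 tissue and sex, the highest or lowest library stood apart from the others by Dixon's test. For normally distributed values chance gives about 1 in 20. That rate need not hold for shares bounded at 100%, so the 18 are not read as an excess. Female liver replicate 6 stood apart in 6 of the 18 checks. Of the livers, this library had the most reads (56312866) and the fewest genes with a read (18010, median 20260). Its mitochondrial share was the lowest (2.41%, median 4.72%), and whether these bear on its shares was not tested. There Eno1 held 94.0% of the enolase level, Pdk1 39.8% of the pyruvate dehydrogenase kinases, Plin2 73.1% of the perilipins, Ppara 79.8% of the PPAR family, Cox8a 99.9% of subunit 8 and Rpl3 98.8% of its family, each the lowest of the female livers. In male liver replicate 1 Phkg2 held 98.4% and Cox6a1 99.9%, and in female liver replicate 4 Eef1a1 held 99.9996%, each the lowest of its group.

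Among muscles, the lowest shares that stood apart were 99.5% for Pfkm in male replicate 3, 99.8% for Pkm in female replicate 6, 93.2% for Fbp2 and 98.1% for Mat2a in female replicate 2, 97.5% for Phka1 in female replicate 1, 80.8% for Slc27a1 and 72.4% for Ppard in male replicate 4, and 67.3% for Plin4 in male replicate 6. Aldoa was at 19859 CPM in female muscle replicate 2, the highest of that group.

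The tissue difference itself differed between the sexes for 27 of 101 genes checked, by the interaction test in edgeR. The genes checked were the leaders of switching families, the most abundant tissue genes and those with the largest interactions. The genes with the largest interactions were picked by this same test, so their calls follow from the choice. Over all genes tested, the share with an interaction was 8.26%. Because of that choice, the 27 are not read as an excess over this share. As female minus male values on the log2 scale, the interaction was 15.12 for Sult2a2, 13.08 for Sult2a1, 12.98 for A1bg, 11.67 for Cyp3a16 and 11.57 for Sult3a1. In the opposite direction it was -10.74 for Cyp4a12a, -10.70 for Moxd1, -9.43 for Mup7, -9.00 for Mup1, -8.38 for Mup21 and -7.44 for Serpina1e. Among the other named genes it was 2.28 for Ryr1, 1.45 for Slc27a1, 1.39 for Hk2, 0.91 for Slc25a4, 0.89 for Mat2a, 0.88 for Prkag2, 0.86 for Pkm, 0.80 for Prkab1, 0.80 for Des and 0.73 for Adss1. It was -3.10 for Krt8, -1.67 for Ppara, -1.27 for Lpl, -1.13 for Pygl, -0.78 for Eef1a1 and -0.78 for Pgam1.

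In the library left out, which carries the label of a male liver, the 8 muscle fibre markers summed to 159265 CPM of the library size, against 150105 to 179874 CPM in the 13 muscles and at most 2.04 CPM in the livers. Its log2 levels correlated with those of the muscles at 0.964 to 0.984 and with those of the livers at 0.644 to 0.661 across genes.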

How the results depend on the processing

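The counts of genes that differed between the tissues, in the mean of the sexes and in each sex, stayed within 1.5 times of their main values under all settings run, and so did the switches and pairs except with the library labelled liver, male, WT, replicate 5. With that library the switches fell to 12, the opposite pairs to 239 and the interactions to 961. With a filter asking for 10 reads in both tissues, genes past 2-fold numbered 5747, and fewer genes were then tested. A replicate block gave 805 interactions and changed no switch (39) and no other count by over 1.5 times. The labels do not say that a replicate number pairs a liver with a muscle, and deviations of same-numbered libraries correlated at -0.0547 to 0.103, or at -0.00411 to 0.173 for libraries that share the number in their name. Leaving out 1 library gave 14875 to 15328 genes in the mean of the sexes, 12660 to 13154 in females, 13194 to 13901 in males, 9304 to 9608 past 2-fold, 1307 to 2266 interactions, 38 to 40 switches and 345 to 371 pairs. Of 10441 values of 292 named genes under the alternatives, 10330 kept direction and call, 46 gained and 59 lost a call, and 6 reversed under upper quartile scaling, which moved the median of all genes by -0.31: Chchd2 (-0.26), Eef2 (-0.25), Psma6 (-0.28), Rps3a1 (-0.27), Rps4x (-0.22) and Tmod3 (-0.0155). Of the called genes, 41.7% were then higher in liver, against 50.7% in the main fit, and of the interactions 61.4% were higher in females, against 48.5%. That share was 32.5% with no filter, 35.4% with the filter in both tissues and 26.5% with the excluded library. The interactions of Mup1 (-5.80) and Mup21 (-5.17) lost their call without female muscle replicate 2, that of Sult3a1 (8.52) without male muscle replicate 3, and that of Cyp3a16 (10.96 and 11.02) without male muscle replicate 2 or 3. That of Mup21 was also lost with the replicate block, and limma-voom did not call those of A1bg, Cyp3a16, Moxd1 and Sult2a1 (adjusted p of 0.066 to 0.50). The switch of Slc16a1 and Slc16a3 was lost under most settings. DESeq2 gave 36 switches, and that of Rpl3 is missing because the adjusted p of Rpl3l was NA. Of the 39 switches 36 were kept with CPM in place of length, which lost those of Fabp4 and Slc16a1 among others, and 36 with the length of the canonical transcript, which lost those of Eef1a2, Fabp4 and Pdk1. CPM without length gained FoxO and acetyl-CoA carboxylase, and the canonical length the latter. Upper quartile scaling kept 35 switches, the filter in both tissues 31 and the library number as a block 38, and each lost that of Myh9 and Myh4. The gene lengths, the alternatives for the pairs and the switches within 1 sex were added after seeing the data. Depth limits genes near 0 in a tissue, whose folds rest on a few reads.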

Other observations

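Markers of the other cell types also differed between the tissues. Clec4f, a marker of Kupffer cells, had 37.1 to 180.5 CPM in livers and at most 0.137 CPM in muscles. Pax7, which marks satellite cells, had 1.78 to 7.80 CPM in muscles and no read in livers. Of the markers listed, 3 of 4 for the liver sinusoidal endothelium were higher in liver, and 4 of 4 for fibroblasts, 3 of 4 for endothelium, 4 of 5 for adipocytes and 2 of 3 for smooth muscle were higher in muscle. The 4 tendon markers summed to 11.8 to 305 CPM of the library size in muscles, a wider spread than the 8.69 to 18.4 CPM of the 3 satellite cell markers. None of the markers of cholangiocytes, leukocytes or red blood cells was called higher in 1 tissue in both sexes.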
